A study of Mus musculus with 6 samples.

Results

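The replication origin licensing genes Mcm2, Mcm3, Mcm4, Mcm5, Mcm6, Mcm7, Cdc6, Cdt1, Gmnn and Orc1 were compared between activated and quiescent neural stem cells sorted from the ventricular-subventricular zone of adult mice, a neurogenic layer that lines the lateral ventricles. These 10 genes were chosen by name, through probe sets that the platform annotation pairs with exactly 1 gene. They held 26 of the 45037 non-control probe sets, and 10 of the 18193 genes measured by such probe sets. RNA of each population was hybridised to 3 one-colour arrays, which the labels call biological replicates. Activated cells were sorted as GFAP::GFP+CD133+EGFR+CD24- cells and quiescent cells as GFAP::GFP+CD133+CD24- cells, both from adult brains, and the label of the quiescent cells names no gate on the EGF receptor. All cells thus carried a GFP reporter under the GFAP promoter, and the labels give neither the number of animals behind an array nor their exact age, so that p-values measure the spread between these arrays. Levels are given as log2 MAS5 signals. Each difference is the activated mean minus the quiescent mean in log2 units, with its SE, from a limma fit over the 11575 genes bright enough to be tested, with p adjusted after Benjamini-Hochberg and n = 3 arrays in each group.

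Licensing is the step that makes an origin competent to replicate. The origin recognition complex marks the site, and with CDC6 and CDT1 it loads the MCM helicase as an inactive ring around DNA in G1. Geminin binds CDT1 after S phase has begun and blocks renewed loading, so that each origin fires once per cycle. Cells that leave the cycle for long periods are known to lose MCM proteins and CDC6, and loss of licensing is a classical feature of quiescence.

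The licensing genes were higher in activated cells as a group. Of the 10 genes, 9 were called higher in activated cells and 0 lower at an adjusted p under 0.05 in limma, against 17.3% of all tested genes called higher and 17.6% called lower, and 1 was lower at an unadjusted p under 0.05. All 6 MCM helicase genes, both loading factors Cdc6 and Cdt1, and the inhibitor gene Gmnn were among the 9. Their differences lay between 2.25 for Mcm4 and 5.63 for Cdt1. The median over the 10 genes was 3.49, beside a median of 0.01 over all tested genes. In 9 genes every activated array lay above every quiescent array, as it did in 25.1% of all tested genes. Orc1, which encodes the subunit of the origin recognition complex that varies over the cell cycle in mammals, was the exception, and its 2 probe sets differed in opposite directions.

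**Figure D1:**
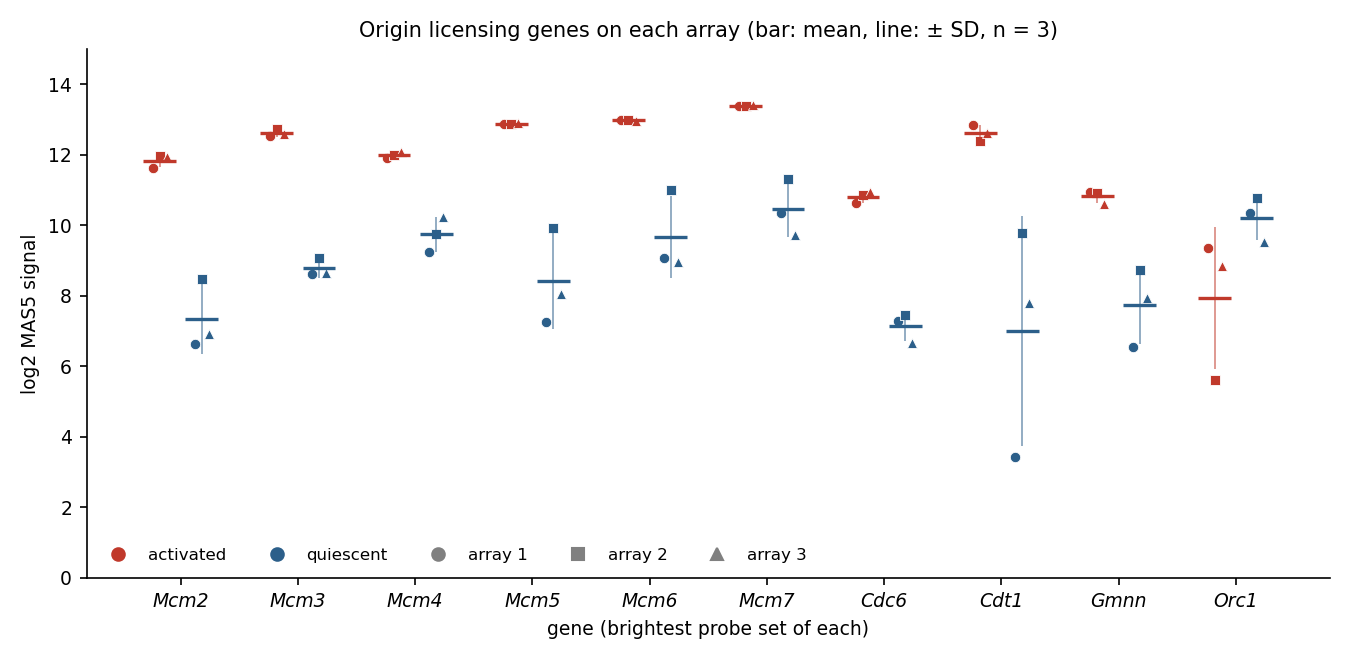
Log2 MAS5 signal (vertical axis) of the brightest probe set of each licensing gene (horizontal axis) on each of 3 activated (red, left) and 3 quiescent (blue, right) arrays. Symbols mark the array number, horizontal bars the group mean and vertical lines ± SD. The activated values of 9 genes lie close together above all quiescent values, while the activated values of Orc1 lie below its quiescent values.

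The promoters of these genes are shown because 9 of the 10 genes moved together and licensing genes are textbook targets of E2F, the transcription factor family released when the retinoblastoma protein is phosphorylated at the end of G1. RefSeq promoters (250 bases before to 50 after each start, GRCm38.p6) were at hand for 8 of the 10 genes, with 2 starts for Mcm7. Mcm4 and Gmnn had no entry. The E2F motif was searched as TTTCCCGC, TTTCGCGC, TTTGCCGC or TTTGGCGC on both strands, where matches may overlap each other. It was found in 7 of these 8 genes, and in 7 of their 9 promoters. It was held by 2.26% of all 32851 RefSeq promoters and by 4.03% of the 12155 promoters of tested genes. A shorter form without the first T was found in 7 of 8 genes as well (8 of 9 promoters), and in 9.57% of all promoters and 16.8% of those of tested genes. The stretches around the matches are given 5′ to 3′ on the strand of the gene, with matched letters in capitals. Those of Mcm5, Mcm6, Mcm7, Cdc6 and Orc1 lie before the start, and those of Mcm3 and Cdt1 just after it.
Mcm3: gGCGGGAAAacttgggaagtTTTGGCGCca
Mcm5: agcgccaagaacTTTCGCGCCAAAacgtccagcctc
Mcm6: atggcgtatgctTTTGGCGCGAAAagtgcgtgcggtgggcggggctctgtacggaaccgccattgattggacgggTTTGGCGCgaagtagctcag
Mcm7: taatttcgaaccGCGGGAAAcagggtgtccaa
Cdc6: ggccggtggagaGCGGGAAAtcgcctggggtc
Cdt1: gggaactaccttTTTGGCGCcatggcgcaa
Orc1: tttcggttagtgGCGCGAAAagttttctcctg

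In GRCm38.p6 these stretches lie at chr1:20820265-20820294 (Mcm3, minus strand), chr8:75109344-75109379 (Mcm5, plus strand) and chr1:128359733-128359827 (Mcm6, minus strand). Those of Mcm7 and Cdc6 lie at chr5:138172029-138172060 on the minus strand and chr11:98908001-98908032 on the plus strand. Those of Cdt1 and Orc1 lie at chr8:122568035-122568064 and chr4:108579415-108579446, both on the plus strand. Mcm6 held 3 matches, 2 of them overlapping on opposite strands, and the Mcm5 pair likewise overlapped. The Orc1 match lay nearest to its start among those before a start, at positions -27 to -20. Mcm7 held the match shown and another 17 to 24 bases after its upstream start, and its downstream start held none. Mcm2, whose signal differed as much as that of Mcm5, held none of these letters in its window. The last 60 bases before its start (chr6:88898781-88898840, minus strand) are shown for contrast.
Mcm2: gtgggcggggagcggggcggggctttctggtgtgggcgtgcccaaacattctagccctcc

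The letters CCAAT, the core of the motif bound by NF-Y, were found on either strand in 6 of the 8 genes (7 of 9 promoters) and in 37.4% of all promoters. Cdc6 and Cdt1 lacked them. The GC content of the 9 promoters ranged from 48.7% to 66.7% with a median of 57.3%, beside a median of 61% over promoters of tested genes. These matches describe letters in a window and not binding in these cells.

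The 6 MCM genes encode the subunits of 1 helicase ring, and each was higher in activated cells. Mcm2, whose protein is a main target of the CDC7 kinase when origins fire, read 11.62, 11.96 and 11.93 in activated cells and 6.63, 8.47 and 6.91 in quiescent cells. The groups did not overlap, and the difference was 4.50 ± 0.47 (22.6-fold, adjusted p = 0.000105). Mcm5, which forms with MCM2 the gate through which DNA enters the ring, read 12.89, 12.88 and 12.90 in activated cells and 7.26, 9.94 and 8.07 in quiescent cells. It was higher by 4.47 ± 0.55 (22.1-fold, adjusted p = 0.000236). Its activated arrays were nearly identical, whereas its quiescent arrays spread widely, with array 2 the highest.

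Mcm3 read 12.55, 12.75 and 12.59 in activated cells and 8.62, 9.08 and 8.64 in quiescent cells. The MCM3 protein is the subunit through which the ring first contacts the loading complex, as shown in yeast. The difference of 3.85 ± 0.27 (14.4-fold) was the most precise among the MCM genes and had an adjusted p of 3.19e-05. Mcm6, which together with MCM4 and MCM7 forms a subcomplex with helicase activity in vitro, read 12.99, 12.98 and 12.97 in activated cells and 9.07, 11.01 and 8.95 in quiescent cells. The Mcm6 difference was 3.31 ± 0.47 (9.89-fold, adjusted p = 0.00054). Averaging its 3 probe sets in place of the brightest lowered this difference to 1.50 and kept the call, because 1 probe set ran the other way.

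Mcm7, another subunit of that subcomplex, read 13.38, 13.38 and 13.42 in activated cells and 10.35, 11.33 and 9.72 in quiescent cells. It was higher by 2.93 ± 0.37 (7.6-fold, adjusted p = 0.000252). Mcm4 read 11.91, 12.00 and 12.08 in activated cells and 9.25, 9.76 and 10.24 in quiescent cells. Its difference of 2.25 ± 0.31 (4.75-fold, adjusted p = 0.000417) was the lowest of the 6, with a 95% interval from 1.57 to 2.93. The interval of Mcm2 ran from 3.46 to 5.55. Whether the subunits differed among themselves in their change was not tested, and levels of different probe sets are not compared. Set among all tested genes, the difference of Mcm2 stood at the 99.2nd percentile and that of Mcm4 at the 94.0th. Of the 10 licensing genes 8 stood at or above the 95th percentile.

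Further probe sets gave the same picture for most MCM genes. In a fit over all 34945 single-gene probe sets without a filter on low signals, 21 of the 26 licensing probe sets were called higher in activated cells, against 9.69% of all of them, and 1 was called lower, against 12.4%. All 5 probe sets of Mcm3 were higher, by 3.85 to 5.87, and all 4 of Mcm7, by 2.93 to 3.36. Both probe sets of Mcm2 (4.50 and 5.07) and of Mcm4 (2.25 and 2.66) were called. The Mcm4 values were the smallest 2 among the called MCM probe sets. For 22 of the 26 probe sets every activated array lay above every quiescent array, as for 16.3% of all single-gene probe sets.

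For Mcm5 and Mcm6, 1 probe set each departed from this, and their others were called higher. Among these, Mcm5 probe set 1415945_at was higher by 6.39 ± 0.88 (adjusted p = 0.000451), with 2 quiescent arrays at background. Mcm5 probe set 1459658_at read 8.49, 7.26 and 7.76 in activated cells and 5.24, 4.71 and 7.27 in quiescent cells. The groups overlapped there, and the difference of 2.09 ± 0.76 was not called (adjusted p = 0.0711). Mcm6 probe set 1447756_x_at read 4.59, 1.44 and 2.73 in activated cells and 6.18, 6.73 and 5.48 in quiescent cells. It was called lower by the fit (-3.21 ± 1.02, adjusted p = 0.0416), with all 3 activated arrays at or below background. Raising these to background gave a fold of 2.9. Background is the 95th percentile of 27 control probe sets for bacterial transcripts, between 4.52 and 4.67 on activated and between 5.45 and 6.10 on quiescent arrays. Quiescent arrays 1 and 3, at 6.18 and 5.48, barely exceeded their own backgrounds of 6.10 and 5.45. With background higher on quiescent arrays, this fold is no firm lower bound. The Mcm6 probe set did not reach the mean signal required of tested genes, and its call was lost when any 1 array other than activated array 1 was left out. The other 2 Mcm6 probe sets were higher by 3.31 and 4.41.

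**Figure D2:**
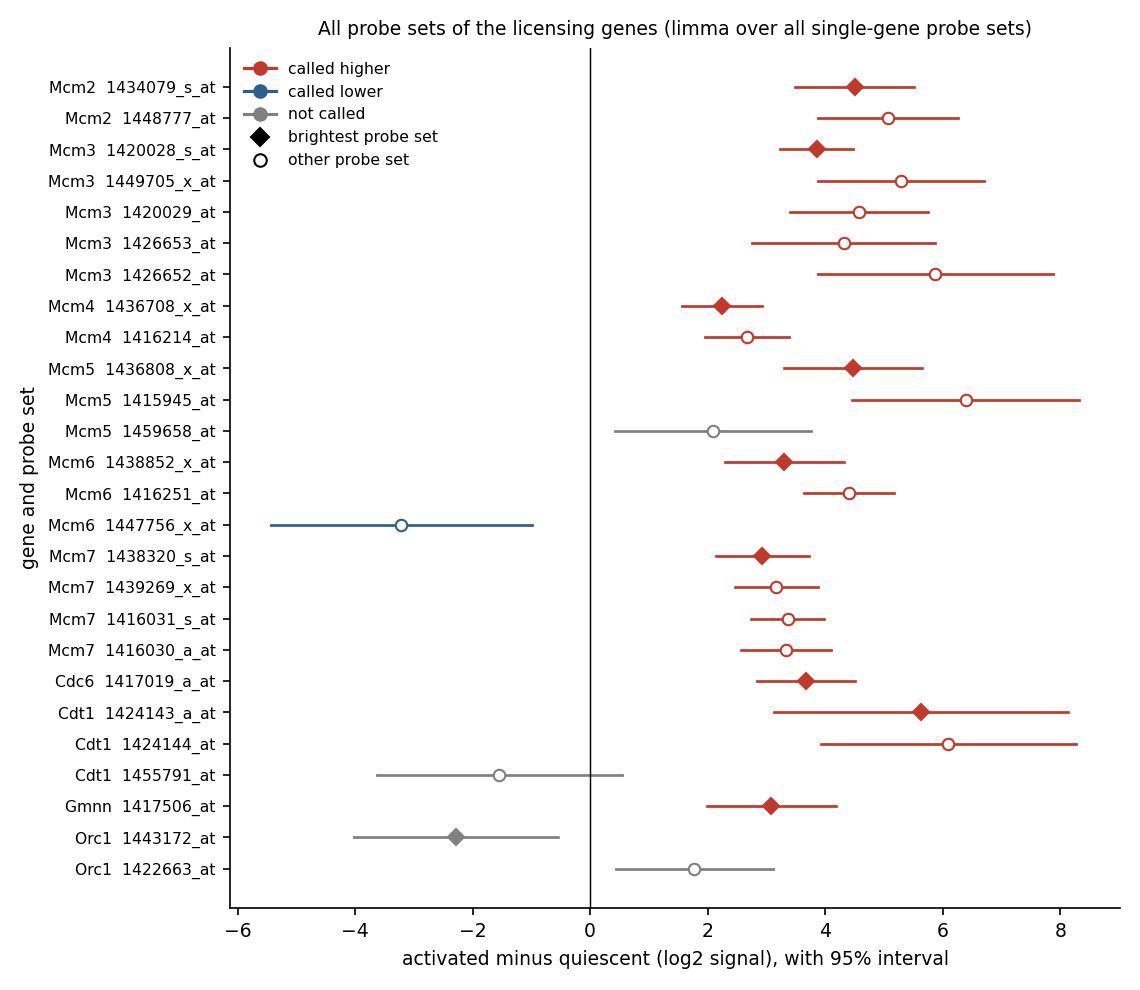
Difference between activated and quiescent arrays (horizontal axis, log2 signal, with 95% interval from limma) for all 26 licensing probe sets (vertical axis). Filled diamonds mark the brightest probe set of a gene and open circles the others. The 21 probe sets called higher lie between 2.25 and 6.39, while Mcm6, Cdt1 and Orc1 each have a probe set below 0.

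The loading factors were higher in activated cells too. Cdc6 encodes the ATPase that joins the origin recognition complex to recruit the helicase. It was measured by 1 probe set, which read 10.63, 10.86 and 10.94 in activated cells and 7.29, 7.47 and 6.66 in quiescent cells. The arrays of both groups were tight, and the difference was 3.67 ± 0.38 (12.8-fold, adjusted p = 0.000102).

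Cdt1 encodes the factor that delivers the helicase to the origin. Its brightest probe set read 12.86, 12.39 and 12.63 in activated cells and 3.42, 9.79 and 7.79 in quiescent cells. Quiescent array 1 was below its background of 6.10, and the quiescent arrays spread more (SD 3.26) than for any other of the 10 genes. The fitted difference was 5.63 ± 1.20 (adjusted p = 0.00495), and with that array held at background the fold was at least 26.7. Without quiescent array 1 the difference was 3.84 (adjusted p = 0.00115). A second Cdt1 probe set was higher by 6.10 ± 0.99 (adjusted p = 0.00121). The third, 1455791_at, was at or below background on all 6 arrays, at 0.39, 1.38 and 0.69 in activated and 1.64, 2.91 and 2.56 in quiescent cells, and gives no fold. Averaging the 3 probe sets lowered the Cdt1 difference to 3.39, with the call kept (adjusted p = 0.0176).

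Gmnn, which encodes geminin, the inhibitor of CDT1, was higher alongside the factor it inhibits. Its single probe set read 10.96, 10.92 and 10.61 in activated cells and 6.56, 8.75 and 7.95 in quiescent cells. The groups did not overlap, and the difference was 3.08 ± 0.51 (8.45-fold, adjusted p = 0.00126). To ask whether the licensing factor and its inhibitor changed by unequal amounts, the log2 signal of Gmnn was subtracted from that of Cdt1 on each array. The result was 1.90, 1.47 and 2.01 on activated and -3.14, 1.04 and -0.16 on quiescent arrays, and only its change between groups can be read. The groups did not overlap and the mean change was 2.55. An exact two-sided permutation test gave p = 0.1, below which a design of 3 against 3 arrays cannot go. With low signals raised to background the change was 1.66, and with the mean of the Cdt1 probe sets it was 0.31 (exact permutation p = 1). This mean includes Cdt1 probe set 1455791_at, which was at or below background on all arrays.

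Orc1 stood apart from the other licensing genes in that its brighter probe set was lower in activated cells. Which of its 2 probe sets better reports the gene was not tested. Its brighter probe set, 1443172_at, read 9.35, 5.62 and 8.86 in activated cells and 10.35, 10.78 and 9.53 in quiescent cells. Every activated array lay below every quiescent array, yet the difference of -2.28 ± 0.83 was not called (adjusted p = 0.0542), with activated array 2 far below the other two. Without activated array 2 the difference was -1.12 (adjusted p = 0.108), and without activated array 1 it was -2.98 and passed (adjusted p = 0.0298). It also passed without quiescent array 3 (adjusted p = 0.0442), with signals raised to background (adjusted p = 0.041), with 16 added to linear signals (adjusted p = 0.0412) and with the replicate number as a block (adjusted p = 0.0449). It failed without quiescent array 1 (adjusted p = 0.126) and without quiescent array 2 (adjusted p = 0.16). Scaling to hybridisation controls (-1.64, adjusted p = 0.144) and a fit without the mean-variance trend (adjusted p = 0.0936) gave no call either. With the mean of both probe sets the difference was -0.25 (adjusted p = 0.774).

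The other Orc1 probe set, 1422663_at, read 8.33, 7.31 and 8.33 in activated cells and 5.59, 6.92 and 6.14 in quiescent cells. Here every activated array lay above every quiescent array, and the difference was 1.77 ± 0.61 (adjusted p = 0.0584 over all single-gene probe sets). Used in place of the brighter probe set in the gene fit, a choice made after its values were seen, it passed (adjusted p = 0.0375), and 10 of 10 genes were then called higher. Subtracting 1443172_at from 1422663_at gave -1.02, 1.69 and -0.53 on activated and -4.76, -3.87 and -3.39 on quiescent arrays. The groups differed by 4.05 in this measure (two-sided exact permutation p = 0.1, the smallest possible), which restates the opposite signs of the probe sets and is no further test.

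The licensing genes spread far less among activated than among quiescent arrays. The median SD over the 10 genes was 0.14 in activated and 0.90 in quiescent cells, beside 0.35 and 0.53 over all tested genes. For Mcm5, Mcm6 and Mcm7 the activated SD was 0.01, 0.01 and 0.02. The limma fit used 1 variance per gene for both groups, moderated over all tested genes, so its SEs do not show this inequality. Orc1 was the 1 gene of 10 whose activated SD was the larger. The other genes were also brighter on activated arrays. Their spread was not compared with that of equally bright genes, so tightness particular to licensing genes was not tested.

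Quiescent arrays differed among themselves in a shared way. Quiescent array 2 was the highest of the 3 quiescent arrays for 9 of the 10 genes, Mcm4 being the exception, and for 23 of the 26 probe sets. Over all tested genes array 2 was the highest in 26.8%, and among 28 other licensing and firing genes that were called higher it was the highest in 12 (42.9%), as was array 3. The median deviation of the 10 genes from their quiescent mean was 0.93 on array 2, -0.55 on array 1 and -0.39 on array 3, whereas the medians over all tested genes lay between -0.02 and 0.04. Mki67, which encodes the proliferation antigen Ki-67, read 10.77, 12.21 and 9.50 on quiescent arrays 1, 2 and 3, and Top2a, a topoisomerase of dividing cells, 5.22, 9.24 and 6.88. Quiescent array 2 was the highest for both. In bulk RNA, fewer cells with licensing transcripts cannot be told apart from less such RNA per cell. Without quiescent array 2 the same 9 genes were called higher, by 2.25 (Mcm4) to 7.03 (Cdt1).

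**Figure D3:**
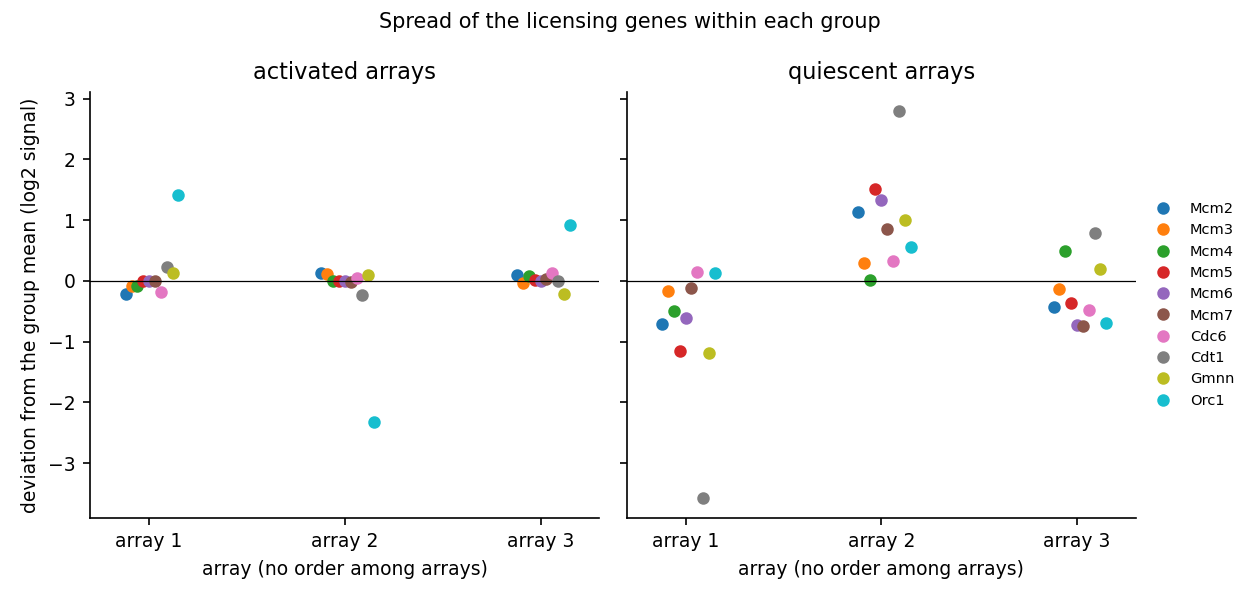
Deviation of each licensing gene from its group mean (vertical axis, log2 signal) on the 3 activated arrays (left) and the 3 quiescent arrays (right). Colours mark the genes, and arrays have no order within a group. All genes but Orc1 stay close to 0 on activated arrays, and 9 of 10 genes are highest on array 2 among quiescent arrays.

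The rest of the licensing and firing machinery was examined through lists of other genes. Of 40 tested genes in 5 lists, 28 were called higher and 0 lower in activated cells in limma, with 0 lower at an unadjusted p under 0.05 as well, and their median difference was 1.68, where 17.3% of all tested genes were called higher and 17.6% lower. Leaving out activated array 2 lowered the higher count to 18. Of the 28 genes 17 were called under every alternative that gave them a value, and the other 11 lost the call under at least 1. The geminin relatives Gmnc and Mcidas, which act in multiciliated cells, were not analysed here.

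Among 7 other recognition and loading genes 3 were called higher and 0 lower (median 1.04), and Orc2 was the only subunit of the recognition complex among the 3. Orc2 read 10.77, 11.36 and 10.42 in activated and 9.36, 9.93 and 8.30 in quiescent cells, a difference of 1.65 ± 0.44 (adjusted p = 0.015). Leaving out activated array 2 ended this call (adjusted p = 0.0712). Kat7, a histone acetyltransferase that aids MCM loading, was higher by 1.42 ± 0.49 (adjusted p = 0.0439), and Mcmbp, a binding partner of the MCM ring, by 1.19 ± 0.37 (adjusted p = 0.0308). The calls of Kat7 and Mcmbp were lost under 8 and 6 of 17 alternatives, including the mean of probe sets (adjusted p = 0.623 for Kat7 and 0.149 for Mcmbp). Orc3, Orc4, Orc5 and Orc6 were not called, with differences of 0.43, 0.16, 1.04 and 0.40. The interval of Orc4 ran from -0.65 to 0.97 and that of Orc6 from -0.34 to 1.14.

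Relatives of the MCM genes were higher in 2 of 3 cases. Mcm10, which despite its name is no ring subunit but helps to activate the helicase, read 10.90, 11.13 and 10.26 in activated cells and 5.01, 6.35 and 5.77 in quiescent cells. It was at least 25.8-fold higher (adjusted p = 7.32e-05), 1 quiescent array being at background. Mcm8, which acts with MCM9 in homologous recombination, was higher by 2.35 ± 0.50 (adjusted p = 0.00522). Mcm9 did not differ detectably (-0.17 ± 0.35, 95% interval -0.95 to 0.60, adjusted p = 0.724).

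Genes that convert a licensed origin into a fork were called higher in 11 of 13 cases and lower in 0 (median 2.45). Cdc7 encodes the kinase that phosphorylates the loaded ring, and Dbf4 its activating subunit. Cdc7 was higher by 2.68 ± 0.34 (adjusted p = 0.000253), and Dbf4 at least 29.7-fold (adjusted p = 0.001), 2 of its quiescent arrays being at background. Ticrr, the scaffold for helicase activation also called treslin, had signals at least 12.8-fold higher (adjusted p = 0.000269). Its partner Topbp1 was higher by 2.33 ± 0.31 (adjusted p = 0.000338). The GINS complex and CDC45 join the MCM ring to form the active helicase. Gins2 was higher by 3.17 ± 0.36, Gins1 by 2.45 ± 0.39, Gins3 by 1.89 ± 0.51 and Gins4 by 1.46 ± 0.32 (adjusted p = 0.000152, 0.001, 0.0162 and 0.00555). Cdc45 was at least 7.43-fold higher (adjusted p = 0.0013). After quantile normalization, Cdc45 differed by 0.30 and its call was lost (adjusted p = 0.672). Cdc45 had 2 probe sets, and whether the same one was the brightest after this normalization was not checked.

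Mtbp, a partner of treslin, was higher by 1.66 ± 0.48 (adjusted p = 0.0216), and Recql4, a helicase needed for initiation, was at least 4.53-fold higher (adjusted p = 0.0443). The calls of Gins3, Mtbp and Recql4 were lost under 2, 5 and 4 of 17 alternatives (adjusted p up to 0.0597, 0.0746 and 0.132). Donson (1.32 ± 0.47, adjusted p = 0.0521) and Rif1 (0.69 ± 0.34, adjusted p = 0.143) were not called.

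Cyclins and the kinase of S phase entry were called higher in 4 of 5 cases and lower in 0 (median 2.76). Ccna2, the S and G2 phase cyclin, was higher by 4.47 ± 0.50 (adjusted p = 0.000137), and Cdk2, the kinase that it and the E cyclins activate, by 2.76 ± 0.37 (adjusted p = 0.000371). The E cyclin genes Ccne1 and Ccne2 were at least 5.83-fold and 4.22-fold higher (adjusted p = 0.00896 and 0.0291). The Ccne2 call was lost under 5 of 17 alternatives (adjusted p up to 0.101). The phosphatase gene Cdc25a was not called (1.20 ± 0.57, adjusted p = 0.124).

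Genes of the turnover of licensing factors, which act in both directions, were called higher in 8 of 12 cases and lower in 0 (median 1.14). Dtl, the substrate adaptor that directs CDT1 to destruction during replication, had signals at least 18.2-fold higher (adjusted p = 0.000921). Pcna, the clamp on which that destruction takes place, was higher by 2.14 ± 0.25 (adjusted p = 0.000174). Ccnf, an F-box protein that targets CDC6 among others, was at least 21.6-fold higher (adjusted p = 7.83e-05). Skp2, another F-box protein that targets CDT1, was higher by 1.70 ± 0.35 (adjusted p = 0.00436). Fbxo5, which inhibits the anaphase-promoting complex and thereby spares geminin, was higher by 2.94 ± 0.34 (adjusted p = 0.000174).

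Smaller differences were called for Ddb1 (0.80 ± 0.27, adjusted p = 0.0429), the linker of the ligase that DTL serves, for Fzr1 (0.97 ± 0.34, adjusted p = 0.047), an activator of the anaphase-promoting complex, and for the deubiquitinase gene Usp37 (1.31 ± 0.46, adjusted p = 0.0486). Each of these 3 calls was lost under 8 of 17 alternatives (adjusted p up to 0.145, 0.145 and 0.183). The ligase core genes Cul4a, Cul4b, Cul1 and Skp1 were not called, with differences of -0.01, 0.05, 0.13 and 0.54.

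**Figure D4:**
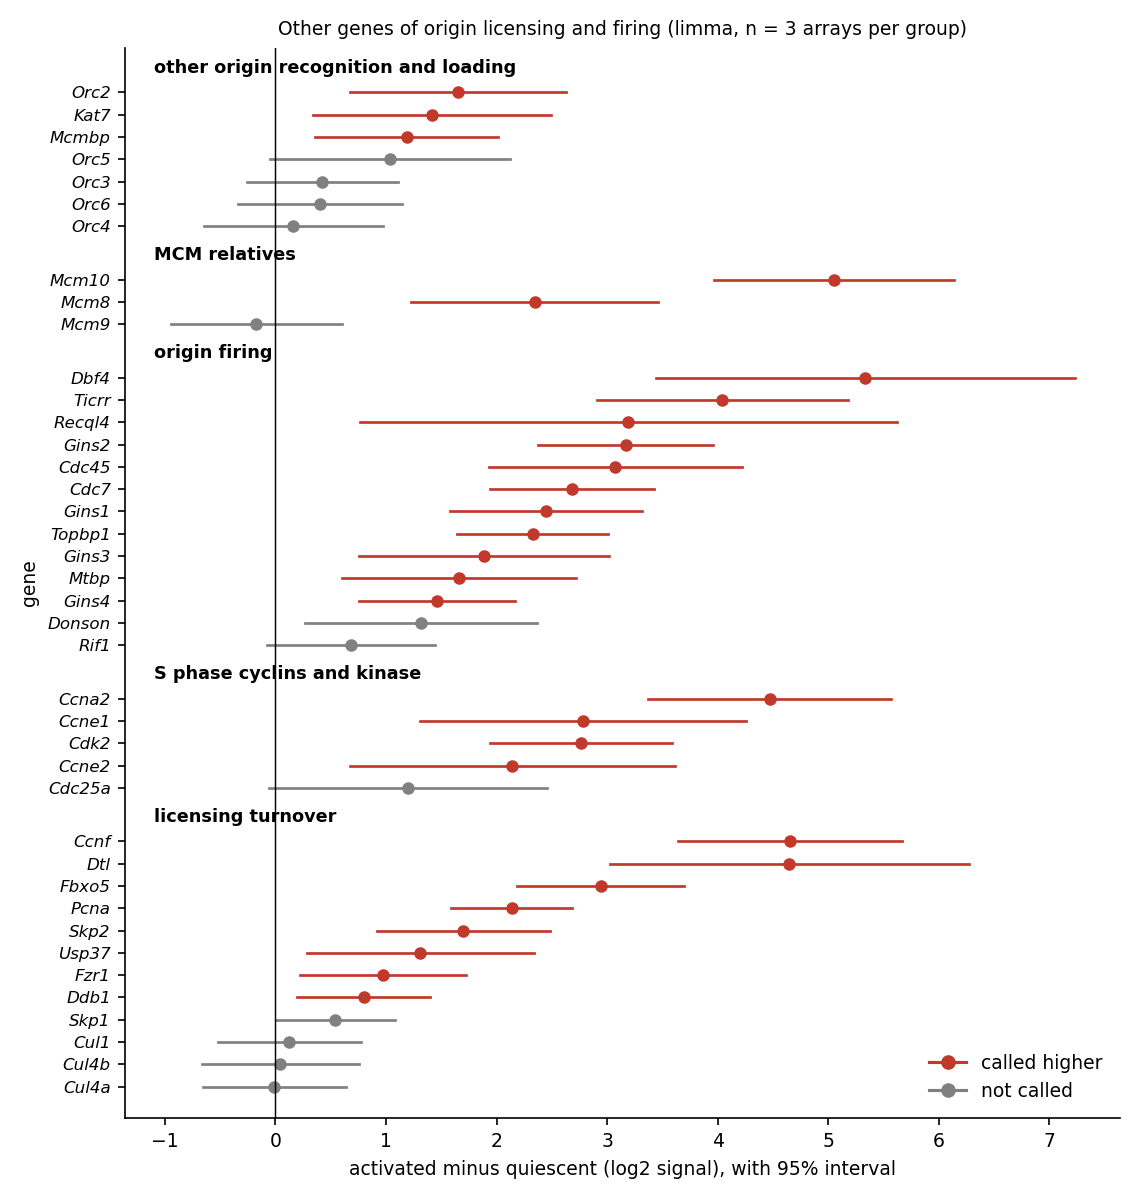
Difference between activated and quiescent arrays (horizontal axis, log2 signal, with 95% interval from limma) for 40 other genes of origin licensing and firing, grouped by list (vertical axis). Red marks genes called higher and grey genes not called. The cullin genes, Orc3, Orc4 and Orc6 lie near 0, whereas Dbf4, Mcm10, Ccnf, Dtl, Ccna2 and Ticrr lie beyond 4.

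The sorted populations were checked against their markers. The activated gate selects for the EGF receptor, and Egfr differed by 2.11 ± 0.24 (adjusted p = 0.000153). Both gates select GFAP reporter and CD133 and exclude CD24, yet Gfap (-4.18 ± 0.58) and Prom1 (-1.22 ± 0.32), the gene of CD133, were lower in activated cells. Cd24a, the gene of CD24, was higher by 4.13 ± 0.50 (adjusted p = 0.000223) in activated cells although CD24+ cells were gated out. Several marker lists moved with the groups as well. All 3 tested activated stem or transit amplifying genes, Egfr among them, were called higher. Their summed linear signal was 30534 to 31922 on activated and 3927 to 8487 on quiescent arrays. Of 6 microglia genes only 1 was tested, and it was not called. Of 6 neuroblast genes 3 were called higher and 0 lower, and their summed linear signal was 18314 to 23145 on activated and 1088 to 8417 on quiescent arrays, with no neuroblast gene at background on all activated arrays. Of 6 tested mature oligodendrocyte genes 6 were called lower, with sums of 2039 to 5204 on activated and 15034 to 57489 on quiescent arrays. All 3 tested ependymal, all 3 tested endothelial and both tested pericyte genes were lower too, of 6, 6 and 4 listed. Of 8 stem cell or astrocyte genes 5 were lower and 1 higher. Of 4 oligodendrocyte precursor genes 1, Olig2, was higher (3.22 ± 0.67, adjusted p = 0.00431), with summed signals of 2995 to 4129 on activated and 1266 to 4233 on quiescent arrays. Of 3 tested mature neuron genes 1, Rbfox3, was at least 7.59-fold higher (adjusted p = 0.0106), with sums over the list of 1438 to 2983 on activated and 845 to 1239 on quiescent arrays. The part of these cells in the licensing result was not tested. The 3′ minus 5′ signal of Gapdh, a sign of RNA integrity, was 1.19, 1.51 and 1.41 on activated and 2.59, 2.01 and 1.54 on quiescent arrays (two-sided exact permutation p = 0.1), and that of actin averaged 0.07 ± 0.16 on activated and -0.05 ± 0.16 (SD) on quiescent arrays (exact permutation p = 0.4). Their part in the licensing result was not tested. Hybridisation controls averaged 13.7 ± 0.05 on activated and 14.3 ± 0.53 (SD) on quiescent arrays (two-sided exact permutation p = 0.1). With arrays scaled to them the median over all tested genes became 0.66, and the same 9 licensing genes were called higher, by 2.89 to 6.28.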

How the data were processed

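Per the labels' protocols, RNA was isolated with miRNeasy, amplified by NuGEN Pico and biotin-labelled. The deposited values are log2 signals, and the submitters' processing notes name MAS5 as the authors' tool, with no version given here. Every array had the same linear trimmed mean, so differences in total RNA per cell are not retained. MAS5 values near background are noisy, and the number of arrays limits precision.

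Groups and replicate numbers came from the sample titles. After setting aside 64 control probe sets, the platform annotation paired 34945 with a single gene, 932 with more than 1, and left 9160 unnamed. Current symbols came from a RefSeq table (GRCm38.p6) that held 99.4% of the Entrez identifiers. The brightest probe set of each gene was kept, and genes were tested when its mean log2 signal was at least 6.02 (the 40th percentile over non-control probe sets), which all 10 licensing genes did. The fit used limma 3.58.1 (lmFit, then eBayes with trend) in R 4.3.3 and was tested on simulated data. Calls were made at 0.05 after Benjamini-Hochberg adjustment. Where any array of the dimmer group did not exceed background, that group was raised to background and the fold is a lower bound. Bounds compare group means and carry no SE.

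The licensing genes, lists and motifs were chosen with earlier results of these data known. All 10 licensing genes and all called genes of the 5 lists of other licensing and firing genes are named. Same-numbered arrays of the groups did not deviate together from their group means (correlations over genes of 0.06, -0.02 and 0.03), so the replicate number was not taken as a pairing. Figures were drawn with matplotlib 3.10.9.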

Additional observations from a re-analysis of the deposited data

How the results depend on the processing

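Alternatives to the scaling, the signal filter, the probe set rule, the variance model and the arrays used were run, each alone. The 9 licensing genes other than Orc1 kept their direction and their call in all 151 comparisons. Without probe sets that may cross-hybridise, Mcm7 and Cdc6 had no probe set left and 7 genes were counted. The count of licensing genes called lower was 1 (Orc1) with signals raised to background, with 16 added to linear signals and with the replicate number as a block, and 0 to 1 when 1 array was left out. With the other Orc1 probe set, chosen after seeing the data, Orc1 reversed to 1.77. The count of licensing probe sets called lower was 0 after quantile normalization, after scaling to hybridisation controls and without the mean-variance trend, 3 with signals raised to background, and 0 to 2 when 1 array was left out. With the replicate block 21 licensing probe sets and 25 listed pathway genes were called higher, and the block changed no call of the other 9 licensing genes. Scaling to hybridisation controls gave 3059 higher and 943 lower genes among all tested, where the deposited scaling gave 2004 and 2040, so that 76.4% of called genes were higher against 49.6%. Leaving out 1 array gave 1315 (without activated array 2) to 2440 higher genes among all tested, and 18 to 29 higher pathway genes. The change of Cdt1 minus Gmnn ranged from 0.31 with the mean of probe sets to 2.62 after quantile normalization. The low end includes the Cdt1 probe set that was at or below background on all arrays. Signals raised to background and 16 added to linear signals gave values between these. This range covers no fit with an array left out. Without quiescent array 2 the difference was 7.03 for Cdt1 and 3.58 for Gmnn. Without quiescent array 1 these differences were 3.84 and 2.48. Signals at or below background, as for Cdt1 on quiescent array 1, limit a fold to a lower bound.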
